A study of Mus musculus with 6 samples.

Results

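The genes described here are 10 components of the Notch pathway, measured in cultured mouse neural stem and progenitor cells (NSPCs): the receptors Notch1, Notch2 and Notch3, the ligands Dll1, Dll3 and Jag1, the nuclear factor Rbpj, and the effectors Hes1, Hes5 and Hey1. They were chosen by name and matched to the gene tables by NCBI gene identifier, 10 of the 17254 genes that had a read in any library. RNA-seq was made from 6 libraries in 3 groups of 2, each after 48 h. Control cells were mock-treated by the study's account. The other cells were given PQ (paraquat, a redox-cycling compound that produces superoxide) at 5 µM or NAC (N-acetylcysteine, a thiol antioxidant) at 5 mM. The labels of PQ library 2 and of the NAC libraries state no dose. The study's methods give these doses for RNA-seq, but another PQ concentration where they describe the cultures. By the study's methods all groups came from an immortalized neonatal culture of the subventricular zone that lacks the Ink/Arf locus, a mixed population kept in N2 medium with EGF and bFGF. The labels give the strain C57BL/6 and the genotype as Ink/Ark knockout for control library 1 and PQ library 1, and state no strain or genotype for the others. The same pair was described as prepared by Illumina protocols from column-purified RNA, whereas control library 2, PQ library 2 and both NAC libraries were described as TRIZOL extracts sequenced on BGISEQ-500, so by the labels the NAC group exists on one platform only. The study's methods differ from these labels and name a stranded Illumina kit and an Illumina sequencer for RNA-seq, so every value given for BGISEQ-500 libraries rests on the labels being right. Within that platform the comparisons rest on 1 control, 1 PQ and 2 NAC libraries, and the spread comes from the NAC pair alone, so values of single genes among BGISEQ-500 libraries are given without a p, and where calls in that fit are counted among alternative analyses they carry the same limit. The tables summed to between 9680436 and 10698241 expected counts per library. The study states that RNA-seq was replicated and, in planning sample size, refers to biological replicates, but the sources do not say whether the libraries of a group came from separate cultures, so p-values measure the spread between these samples, which may be technical.

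In Notch signalling, a DLL or JAG ligand on one cell binds a Notch receptor on its neighbour, which is then cleaved by an ADAM protease and by gamma-secretase. The freed intracellular domain enters the nucleus, joins RBPJ and a Mastermind coactivator, and turns on HES and HEY genes, whose products repress proneural genes. In the developing brain this exchange keeps some progenitors undifferentiated while their neighbours express ligands and proceed toward neurons, and Notch activity is also known for its part in astrocyte formation.

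Promoter sequences were taken from a set of windows before RefSeq starts (GRCm38.p6), which held 8 of the 10 members. Hes1 and Hey1 had no entry in that set and are named only. The bases before the start of Dll1 are shown because Dll1 changed more than any other member tested. Those of Nrarp and Lfng, pathway genes described further on, are shown as genes lower in PQ than in NAC, as Dll1 was. They were picked by hand from the 10 other pathway genes called lower in that comparison. Tle4, which differed more than Lfng (log2 fold change -1.01 against -0.90), is not shown. Each run is 250 bases long and reads 5' to 3' toward the start: Dll1 at chr17:15376933-15377182 (minus strand), Nrarp at chr2:25180508-25180757 (plus strand) and Lfng at chr5:140607091-140607340 (plus strand). Capitals mark every match, on either strand, to the RBPJ motif GTGGGAA, its core TGGGAA (contained in the first), the N-box CACNAG and the class C site CACGNG that HES and HEY proteins are known to bind, and the E-box CAGCTG that proneural factors are known to bind.
Dll1: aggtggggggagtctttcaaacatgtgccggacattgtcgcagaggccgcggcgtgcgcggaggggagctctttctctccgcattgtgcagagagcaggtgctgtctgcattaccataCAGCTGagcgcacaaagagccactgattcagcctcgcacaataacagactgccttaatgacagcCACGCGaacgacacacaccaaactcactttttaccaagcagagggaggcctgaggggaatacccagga
Nrarp: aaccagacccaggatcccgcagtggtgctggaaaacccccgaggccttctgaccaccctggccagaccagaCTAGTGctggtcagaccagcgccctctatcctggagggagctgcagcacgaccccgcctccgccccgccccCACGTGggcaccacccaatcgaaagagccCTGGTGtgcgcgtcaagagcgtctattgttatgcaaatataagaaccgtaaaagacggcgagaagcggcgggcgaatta
Lfng: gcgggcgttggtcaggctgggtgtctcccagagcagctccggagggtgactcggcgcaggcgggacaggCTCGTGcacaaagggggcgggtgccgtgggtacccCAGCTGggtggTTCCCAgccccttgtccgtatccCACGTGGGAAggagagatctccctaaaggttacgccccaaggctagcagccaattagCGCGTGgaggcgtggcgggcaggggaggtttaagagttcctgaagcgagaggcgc
The Dll1 window held 1 E-box and 1 class C match, and no RBPJ core. In Nrarp there were 2 N-box matches and 1 class C match. The Lfng window held the full RBPJ motif, which overlaps a class C match within one capital run, together with a second RBPJ core, 2 further class C matches, of which one is also an N-box match, and an E-box. Among the 8 members with an entry, the full RBPJ motif was found in 1 (Hes5), the core in 2 (Hes5 and Rbpj), the N-box in 3, the class C site in 4 and the E-box in 3. Of 32851 windows of this length in the table, 5.4% held GTGGGAA, 21.6% TGGGAA, 36.7% CACNAG, 23.5% CACGNG and 13.0% CAGCTG. A match describes letters in this window and does not show that a factor binds there.

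The cells carried markers of neural progenitors. Vim, an intermediate filament gene of progenitors, was the most abundant of the 8 neural stem cell markers, at a mean FPKM (fragments per kilobase of transcript, scaled to library size) of 2073.37, and Sox2, Nes, Fabp7 and Slc1a3 were also well expressed, whereas Prom1 was near 0. Olig1 and Olig2 were high and Sox10 near 0. Of the 7 neuronal markers, Map2 was well expressed, at a mean FPKM of 43.23, Tubb3 (0.94), Elavl3 (0.51) and Snap25 (0.29) were low, and Dcx, Stmn2 and Rbfox3 were near or at 0. Summed FPKM of 5 endothelial markers lay between 0.22 and 0.62 and that of 5 mural cell markers between 0.53 and 1.23, so cells in which Notch3, Dll4 and Hey1 are also known to be expressed were hardly represented by these markers. Cdkn2a, a gene of the deleted locus, had 120 to 162 expected counts in every library. These gene-level counts do not show which exons were read, so they do not test the deletion.

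Of the 10 members, 8 had a mean FPKM of at least 1 and were tested with edgeR's quasi-likelihood test beside all other such genes, 11717 in all. The ones below this level were Dll3, with 4 to 7 counts per library, and Hes5, with at most 2. Per transcript length, Rbpj was the most abundant member at a mean FPKM of 42.29, followed by Hes1 (36.48), Notch1 (28.82), Jag1 (16.42), Hey1 (7.94), Notch3 (6.61), Notch2 (6.59) and Dll1 (2.23). Rbpj lay above 82.6% of the genes tested in mean FPKM and Dll1 above 9.2%. Notch2 and Notch3 did not differ in level beyond the spread between libraries, with FPKM of 5.93 to 7.5 for the former and 4.55 to 8.83 for the latter, and Hey1, at 5.37 to 11.77, overlapped both.

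Dll1 and Hey1 were higher and Rbpj lower in NAC than in control, and Notch3 was higher in PQ than in control. An adjusted p under 0.05 (Benjamini-Hochberg over all genes tested) was reached in PQ against control by 1 of the 8 members tested, which was higher, where 19.2% of all genes passed, 9.76% higher and 9.45% lower. In NAC against control 3 members passed, 2 higher and 1 lower, against 18.7% of all genes, 9.01% higher and 9.64% lower. For PQ against NAC, 5 members passed, 2 higher and 3 lower in PQ, against 31.6% of all genes, 16.0% higher and 15.7% lower. With 8 genes, 1 gene is 12.5% of the list. The PQ and NAC comparisons share the control libraries. The median log2 fold change of the members tested was 0.06, -0.10 and 0.05 in the 3 comparisons, and that of all genes was 0 in each, and members moved in either direction. The count in PQ against control was 0 without control library 1, PQ library 1 or PQ library 2 (edgeR, with 2, 0 and 2 members at an unadjusted p under 0.05), that in NAC against control was 2 without control library 1 or NAC library 2, and that in PQ against NAC was 3 without NAC library 1.

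**Figure D1:**
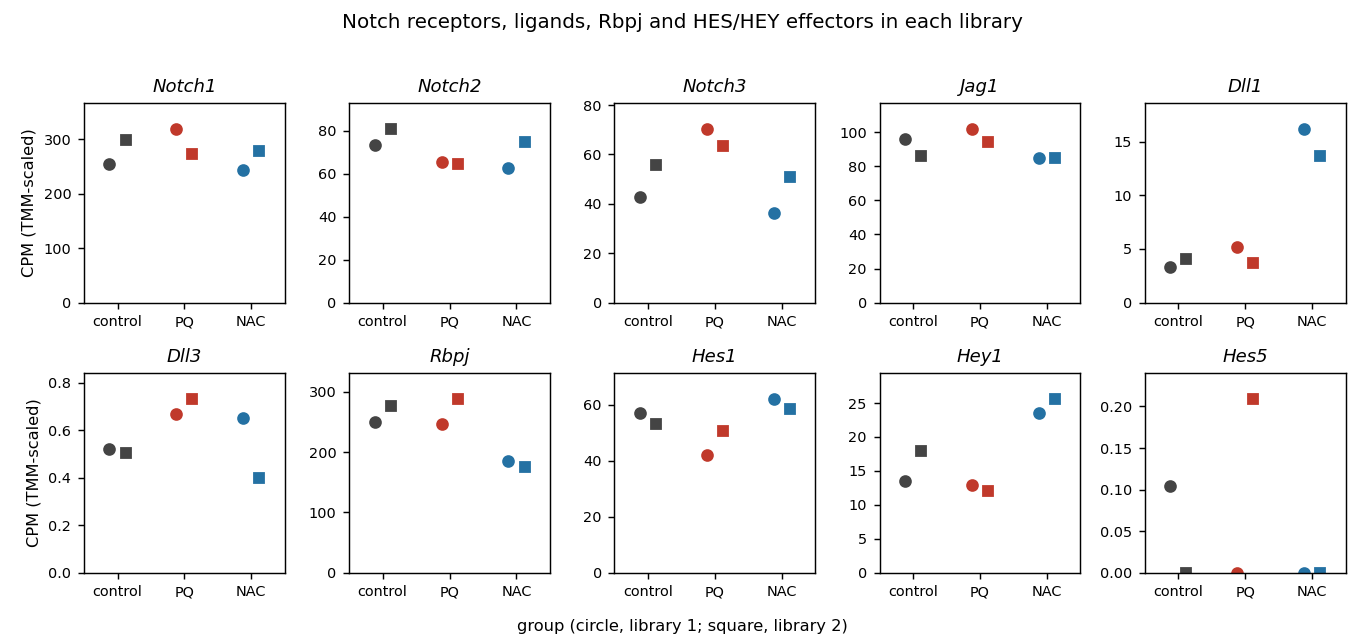
Level of each of the 10 members in each library, in CPM (counts per 1000000, TMM-scaled), with control, PQ and NAC on the x axis, circles for library 1 and squares for library 2 of a group. Both NAC libraries lie above the other 4 libraries for Dll1 (13.7 and 16.2) and Hey1 (23.5 and 25.6), and below them for Rbpj (175 and 185).

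Notch1, the receptor best known for keeping neural progenitors undifferentiated, stood at 254 and 299 CPM (counts per 1000000, TMM-scaled) in control, 319 and 272 in PQ, and 244 and 279 in NAC. The groups overlapped in each comparison. Its log2 fold change was 0.10 in PQ against control (95% interval -0.13 to 0.32) and -0.08 in NAC against control (-0.30 to 0.15), both with an edgeR adjusted p of at least 0.59. Notch2, a second receptor of progenitors, measured 73.4 and 80.9 CPM in control, 65.6 and 64.5 in PQ, and 62.7 and 74.9 in NAC. Both PQ libraries were below both controls, by -0.25 on the log2 scale (95% interval -0.47 to -0.02), which did not pass the threshold (edgeR adjusted p = 0.12).

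Notch3, a receptor known from mural cells and quiescent neural stem cells, was at 42.6 and 55.7 CPM in control, 70.4 and 63.5 in PQ, and 36.3 and 50.9 in NAC. PQ libraries were the highest and did not overlap the others, while control and NAC overlapped. Notch3 rose in PQ against control by a log2 fold change of 0.45 (SE 0.14, edgeR adjusted p = 0.037, n = 2 libraries per group, both PQ libraries above both controls). That call was lost without control library 1 (0.27, adjusted p = 0.23), PQ library 1 (0.37, adjusted p = 0.24) or PQ library 2 (0.52, adjusted p = 0.061), and with DESeq2 (0.45, adjusted p = 0.063). Among BGISEQ-500 libraries alone the value was 0.19. In all, the call was kept in 7 of the 14 alternatives. Against NAC, Notch3 was higher in PQ by 0.62 (SE 0.15, edgeR adjusted p = 0.0029), and by 0.55 among BGISEQ-500 libraries. Leaving out NAC library 1 gave 0.40 and an adjusted p of 0.083.

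Dll1, a Delta ligand that progenitors and newborn neurons present to their neighbours, was low in control and PQ and higher in NAC. It had 32 and 40 expected counts in control, 54 and 35 in PQ, and 175 and 138 in NAC, which is 3.33 and 4.04 CPM, 5.16 and 3.66 CPM, and 16.2 and 13.7 CPM. Both NAC libraries stood far above the other 4, which overlapped each other. Dll1 rose 4.05-fold in NAC against control, a log2 fold change of 2.02 (SE 0.22, 95% interval 1.56 to 2.48, edgeR adjusted p = 2.7e-06), and by 1.89 among BGISEQ-500 libraries. The call held in each of the 14 alternative analyses, and its largest adjusted p was 0.0014. Against NAC, PQ was lower by a log2 fold change of -1.76 (SE 0.21, edgeR adjusted p = 4.7e-06), which was also called in each of the 14. Between PQ and control the value was 0.26 (95% interval -0.29 to 0.81, adjusted p = 0.54), and it turned to -0.01 without PQ library 1 and to -0.14 among BGISEQ-500 libraries. The mean FPKM of Dll1 reached the minimum of 1 in every group, so its place among the genes tested did not depend on NAC alone. In bulk RNA, more cells expressing a gene and more RNA per cell cannot be told apart.

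Jag1, a Serrate-type ligand, was the most abundant of the 3 ligands, at 96.3 and 86.0 CPM in control, 102 and 94.3 in PQ, and 84.7 and 84.6 in NAC. Its libraries lay close together, PQ above NAC without overlap. The log2 fold change was 0.11 in PQ against control, -0.11 in NAC against control and 0.21 in PQ against NAC (95% interval 0.01 to 0.42), with edgeR adjusted p-values of 0.50, 0.51 and 0.11. Dll3, a Delta family protein that acts within the cell and is known to oppose Notch rather than to activate it, had 5 and 5 counts in control, 7 and 7 in PQ, and 7 and 4 in NAC. Differences between groups were not detectable for Dll3 at this depth. Without a filter on low values its log2 fold change was 0.43 in PQ against control (95% interval -1.12 to 1.98).

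Rbpj, the DNA-binding protein through which the receptors act and which represses the same genes when no receptor is active, was at 249 and 277 CPM in control, 247 and 288 in PQ, and 185 and 175 in NAC. Both NAC libraries were below the other 4, and control and PQ overlapped. Rbpj fell in NAC against control by a log2 fold change of -0.55 (SE 0.10, 95% interval -0.76 to -0.34, edgeR adjusted p = 6.5e-04), and by -0.62 among BGISEQ-500 libraries. PQ against NAC gave 0.57 (SE 0.10, edgeR adjusted p = 2.6e-04). Both calls were kept in each of the 14 alternatives. PQ and control differed by 0.02 (95% interval -0.19 to 0.23, adjusted p = 0.91). The expected counts of Rbpj were fractional in all 6 libraries, so some reads were divided with other genes, and its level is uncertain to that extent.

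**Figure D2:**
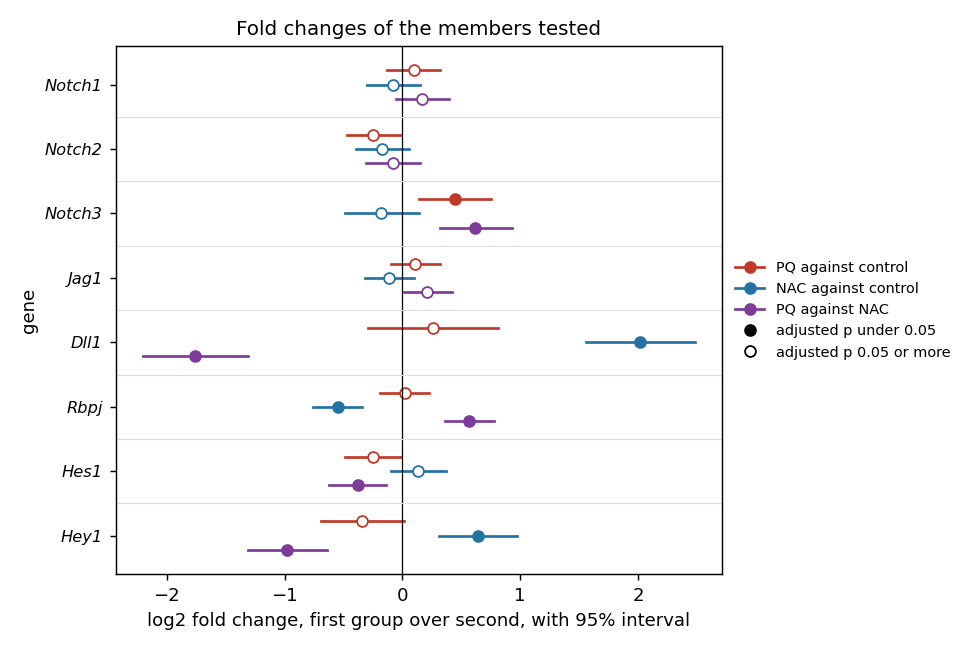
Log2 fold change of the 8 members tested in each comparison, with 95% intervals, filled symbols marking an edgeR adjusted p under 0.05. Dll1 (2.02) and Hey1 (0.64) lie to the right and Rbpj (-0.55) to the left in NAC against control, and Notch3 is the filled symbol of PQ against control.

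Hes1, a basic helix-loop-helix repressor and the classical Notch target of progenitors, was at 57.1 and 53.0 CPM in control, 42.1 and 50.6 in PQ, and 62.1 and 58.5 in NAC. The groups did not overlap, with PQ lowest and NAC highest. Neither comparison with control passed the threshold: the log2 fold change was -0.25 in PQ (95% interval -0.49 to -0.01, edgeR adjusted p = 0.14) and 0.13 in NAC (-0.10 to 0.37, adjusted p = 0.46). With each library left out in turn, these values ran from -0.39 to -0.12 in PQ and from 0.08 to 0.19 in NAC. Among BGISEQ-500 libraries they were -0.06 and 0.19. PQ was lower than NAC by a log2 fold change of -0.38 (SE 0.11, edgeR adjusted p = 0.015). This call was lost without PQ library 1 (-0.25, adjusted p = 0.22), without NAC library 1 (-0.34, adjusted p = 0.11) and with the platform as a covariate (-0.35, adjusted p = 0.062), and the value was -0.25 among BGISEQ-500 libraries.

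Hey1, a related repressor that Notch also induces, measured 13.5 and 18.0 CPM in control, 12.9 and 12 in PQ, and 23.5 and 25.6 in NAC. Again PQ was lowest and NAC highest without overlap. In NAC against control Hey1 rose by a log2 fold change of 0.64 (SE 0.16, edgeR adjusted p = 0.0072). The adjusted p was 0.084 without control library 1 (0.45) and 0.066 without NAC library 2 (0.57), and the value was 0.45 among BGISEQ-500 libraries. PQ was lower than NAC by -0.98 (SE 0.16, edgeR adjusted p = 1.3e-04), a call kept in each of the 14 alternatives, with -1.03 among BGISEQ-500 libraries. Against control, PQ stood at -0.34 (95% interval -0.69 to 0.01, adjusted p = 0.18). That value ran from -0.53 to -0.12 with each library left out in turn, and was -0.58 among BGISEQ-500 libraries. Hes5, the other main effector of neural progenitors, had 1 count in control library 1, 2 in PQ library 2 and 0 elsewhere, so it was not detectable in these cells at this depth and no fold was computed.

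Beyond the 10 members, 59 further genes of the pathway were listed by role, and 46 were tested. In PQ against control 2 were higher and 5 lower, in NAC against control 6 higher and 4 lower, and in PQ against NAC 8 higher and 10 lower, or 15.2%, 21.7% and 39.1% of the genes tested, near the 19.2%, 18.7% and 31.6% of all genes. Their median log2 fold changes were 0.04, 0.06 and -0.04. The number called in PQ against control was 2 without PQ library 1 and 4 without PQ library 2, that in NAC against control 4 without NAC library 1 and 3 without NAC library 2, and that in PQ against NAC 8 to 11 when any PQ or NAC library was left out.

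Nrarp, a Notch target whose product feeds back on the receptor complex, had 6.77 and 6.57 CPM in control, 2.77 and 4.39 in PQ, and 11.4 and 11.7 in NAC. The groups were apart, PQ below control and NAC above. Its log2 fold change was -0.91 in PQ against control (SE 0.25, edgeR adjusted p = 0.014), 0.79 in NAC against control (SE 0.20, adjusted p = 0.0097) and -1.70 in PQ against NAC (SE 0.23, adjusted p = 1.4e-05). The last was kept in each of the 14 alternatives. The fall in PQ was lost without PQ library 1 (-0.60, adjusted p = 0.22), and the value was -0.58 among BGISEQ-500 libraries. The rise in NAC was not called without NAC library 2 (0.78, adjusted p = 0.057), with the platform as a covariate (0.68, adjusted p = 0.065) or with DESeq2 (0.79, adjusted p = 0.054). Lfng encodes Lunatic fringe, a glycosyltransferase that modifies Notch receptors and is itself a Notch target in some tissues. It measured 85.7 and 77.1 CPM in control, 50.7 and 49.2 in PQ, and 91.3 and 94.8 in NAC. Both PQ libraries were low, by a log2 fold change of -0.70 against control (SE 0.10, edgeR adjusted p = 1.2e-04) and -0.90 against NAC (SE 0.10, adjusted p = 2.2e-06), and both calls were kept in each of the 14 alternatives. Nrarp and Lfng are the pathway genes whose promoter sequences are shown above.

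The remaining genes lower in PQ against control were Neurl1b, a ubiquitin ligase of Notch ligands (log2 fold change -0.77, edgeR adjusted p = 0.0015), and the corepressor genes Ctbp1 (-0.31, adjusted p = 0.028) and Ncor1 (-0.26, adjusted p = 0.041). Furin, the protease that processes the receptor precursor (0.35, adjusted p = 0.045), and Dtx4, a Deltex ubiquitin ligase (0.31, adjusted p = 0.038), were higher. The call on Neurl1b was kept in each of the 14 alternatives, that on Ctbp1 in 8, Dtx4 in 5, Furin in 4 and Ncor1 in 3. Over these alternatives the log2 fold change of Ncor1 stayed between -0.28 and -0.25 and that of Ctbp1 between -0.37 and -0.27. Furin stood at 0.15 without control library 1 (adjusted p = 0.43) and 0.59 without control library 2, and Dtx4 at 0.20 without PQ library 1 (adjusted p = 0.41).

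Among the further pathway genes tested, the largest rises in NAC against control were those of Tle4 and Tle2, which encode Groucho-type corepressors. Tle1 and Tle3 of the same family gave 0.19 and -0.11 on the log2 scale (edgeR adjusted p = 0.29 and 0.49). Tle4 was at 40.3 and 41.7 CPM in control, 38.7 and 40.2 in PQ, and 81.9 and 77.4 in NAC, and Tle2 at 19.9 and 20.9, 23.6 and 20.3, and 35.2 and 41.1. For both, the NAC libraries stood apart from the other 4. Tle4 rose by a log2 fold change of 0.96 (SE 0.10, edgeR adjusted p = 2.5e-06) and Tle2 by 0.90 (SE 0.14, adjusted p = 9.4e-05), each kept in the 14 alternatives. Counts of Tle4 were fractional in all 6 libraries, so its level is uncertain to that extent. Smaller rises were found for Numb, an adaptor that antagonizes Notch (0.41, adjusted p = 0.027), Psenen, a gamma-secretase subunit (0.38, adjusted p = 0.029), and Maml2, a Mastermind coactivator (0.32, adjusted p = 0.031). Falls were found for Numbl, a Numb relative (-0.56, adjusted p = 0.028), Maml3, another Mastermind coactivator (-0.56, adjusted p = 0.0039), Hes6, which is known to oppose Hes1 (-0.50, adjusted p = 0.022), and Dner, a non-canonical ligand (-0.33, adjusted p = 0.040). Of the 14 alternatives, the call was kept in 13 for Maml3, 10 for Hes6, 8 for Numbl, 8 for Psenen, 7 for Numb, 4 for Maml2 and 3 for Dner. The log2 fold changes stayed between 0.36 and 0.48 for Numb, 0.31 and 0.45 for Psenen, 0.23 and 0.42 for Maml2, and -0.39 and -0.26 for Dner. Numbl reached -0.24 without control library 2 (adjusted p = 0.39), and Hes6 -0.32 without control library 2 and -0.30 without NAC library 1 (adjusted p = 0.17 and 0.29).

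After Nrarp (-1.70), the largest log2 differences between PQ and NAC among the listed genes tested were those of Tle4, Lfng and Tle2. They were -1.01 for Tle4 (edgeR adjusted p = 6.9e-07), -0.90 for Lfng and -0.80 for Tle2 (adjusted p = 1.8e-04). Dtx1, a Deltex gene (0.68, adjusted p = 0.022), Numbl (0.65, adjusted p = 0.0070), Maml3 (0.58, adjusted p = 0.0017) and Hes6 (0.54, adjusted p = 0.0083) were higher in PQ than in NAC. The corepressor genes Spen, whose product binds RBPJ (-0.48, adjusted p = 0.0013), and Ctbp1 (-0.48, adjusted p = 6.4e-04) were lower. Dtx1 was not called without NAC library 1 (0.45, adjusted p = 0.24) or PQ library 2 (0.52, adjusted p = 0.19), nor with DESeq2 (0.68, adjusted p = 0.081), limma on log2(FPKM + 1) (0.46, adjusted p = 0.082) or limma on log2(FPKM + 0.1) (0.64, adjusted p = 0.091), and was kept in 9 of the 14 alternatives. Not called either were Numbl without PQ library 1 or NAC library 1 (0.58 and 0.56, adjusted p = 0.065 and 0.079), and Hes6 without the same libraries (0.49 and 0.34, adjusted p = 0.069 and 0.16).

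**Figure D3:**
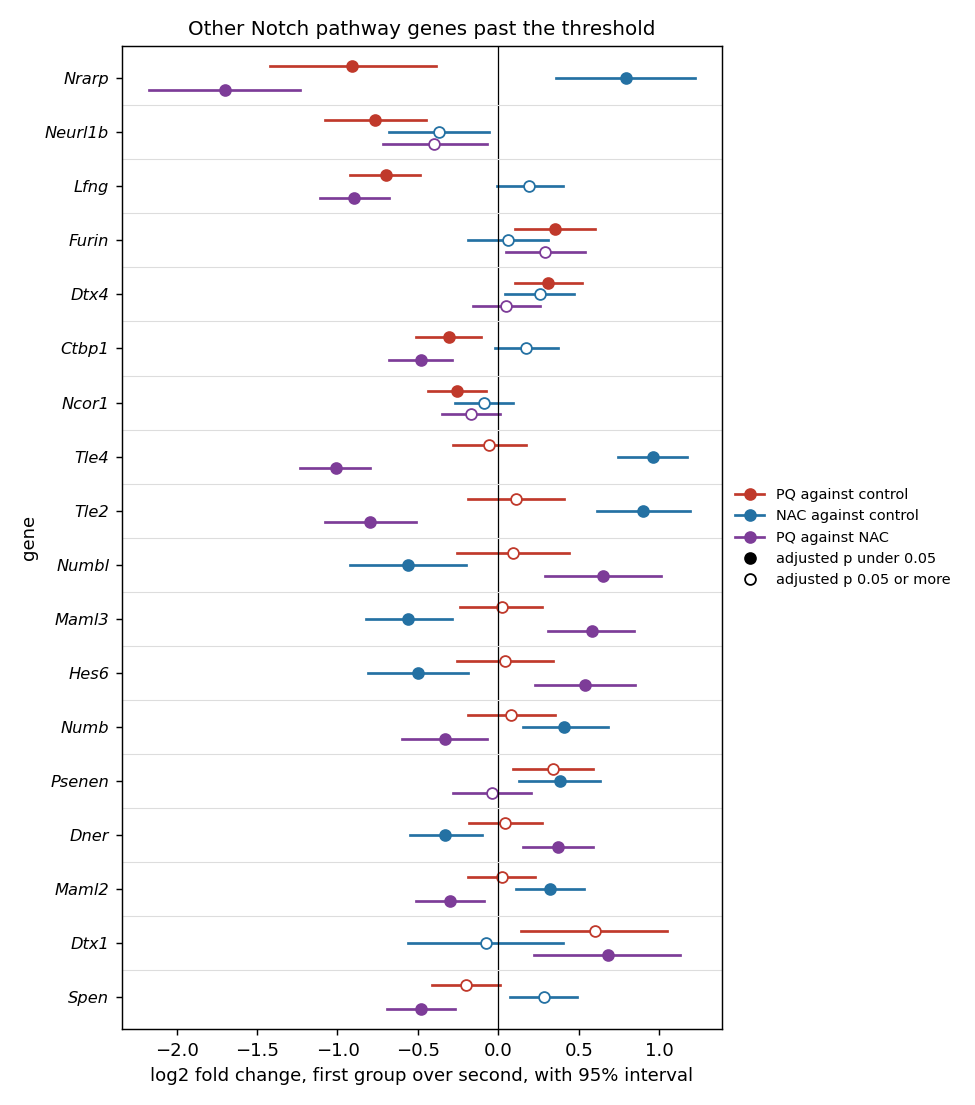
Log2 fold change, with 95% intervals, of the other Notch pathway genes named for a comparison, filled where the edgeR adjusted p was under 0.05. Nrarp is filled in every comparison, at -0.91, 0.79 and -1.70, and Tle4 and Tle2 are filled in NAC against control and in PQ against NAC.

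Among the pathway and member genes under the mean FPKM of 1, 10 had more than 3 counts in some library, and a fit without the filter, over 17209 genes, called 3 of them in NAC against control. The same fit called 15.3% of all genes, and 6.17% of the 2915 genes that were likewise under the filter with more than 3 counts in some library. These 3 were named after their values were seen. Adjusted p-values of this fit, here and below, could be far smaller than those with the filter at the same log2 fold change. For Vim in NAC against control, at -0.75 in both, edgeR gave an adjusted p of 3.8e-19 without the filter and 3.8e-06 with it. With 2 libraries per group, p-values without the filter overstate how well the spread is known. Dll4, a Delta ligand best known from endothelium, had 7 and 9 counts in control, 2 and 4 in PQ, and 37 and 29 in NAC. As for Dll1, both NAC libraries were highest, here with PQ lowest and no overlap between groups. NAC exceeded control by 1.93 on the log2 scale (SE 0.46, edgeR adjusted p = 4.1e-04). Notch4, a receptor also best known from endothelium, had 41 and 28 counts in control, 46 and 32 in PQ, and 9 and 18 in NAC, with a log2 fold change of -1.44 in NAC against control (SE 0.35, edgeR adjusted p = 6.5e-04). Jag2, a ligand, had 6 and 26 counts in control, 28 and 29 in PQ, and 3 and 7 in NAC (-1.74 in NAC against control, adjusted p = 0.014). The control libraries of Jag2 lay far apart, and control library 1 was within the NAC range. The defining endothelial gene Cldn5 was at 0 in every library, and Pecam1 led the 5 endothelial markers at a mean FPKM of 0.25.

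Among the proneural genes, which HES proteins are known to repress, Neurog1, Neurog2, Neurod1, Neurod4 and Atoh1 had at most 2 counts in any library. Insm1 was listed beside them and tested, but it is not itself a proneural factor, so its level is no readout of HES activity. Insm1, a zinc-finger gene of newborn neurons and neuroendocrine cells, had 86.4 and 52.22 expected counts in control, 48.68 and 36.28 in PQ, and 19.32 and 13.24 in NAC. Both NAC libraries were lowest. Insm1 passed the filter, with a mean FPKM of 1.40, only through control (2.88 and 1.71) and PQ (1.54 and 1.23), against 0.59 and 0.44 in NAC, so its place among the genes tested is no support for the difference from NAC. Its log2 fold change in NAC against control was -2.20 in both fits, with an edgeR adjusted p of 9.0e-05 with the filter and 1.6e-12 without it. Over the 14 alternatives that fold change ran from -2.54 to -1.10, and the largest adjusted p was 0.0081. PQ against control gave -0.74 with the filter (SE 0.28, adjusted p = 0.069). The latter depended on the libraries and settings used: it was -0.31 without control library 1 (adjusted p = 0.59), -0.48 among BGISEQ-500 libraries and -1.08 without control library 2 (adjusted p = 0.0080), and it also passed the threshold without the filter (adjusted p = 0.018) and with the platform as a covariate (adjusted p = 0.046). Counts of Insm1 were fractional in all 6 libraries.

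**Figure D4:**
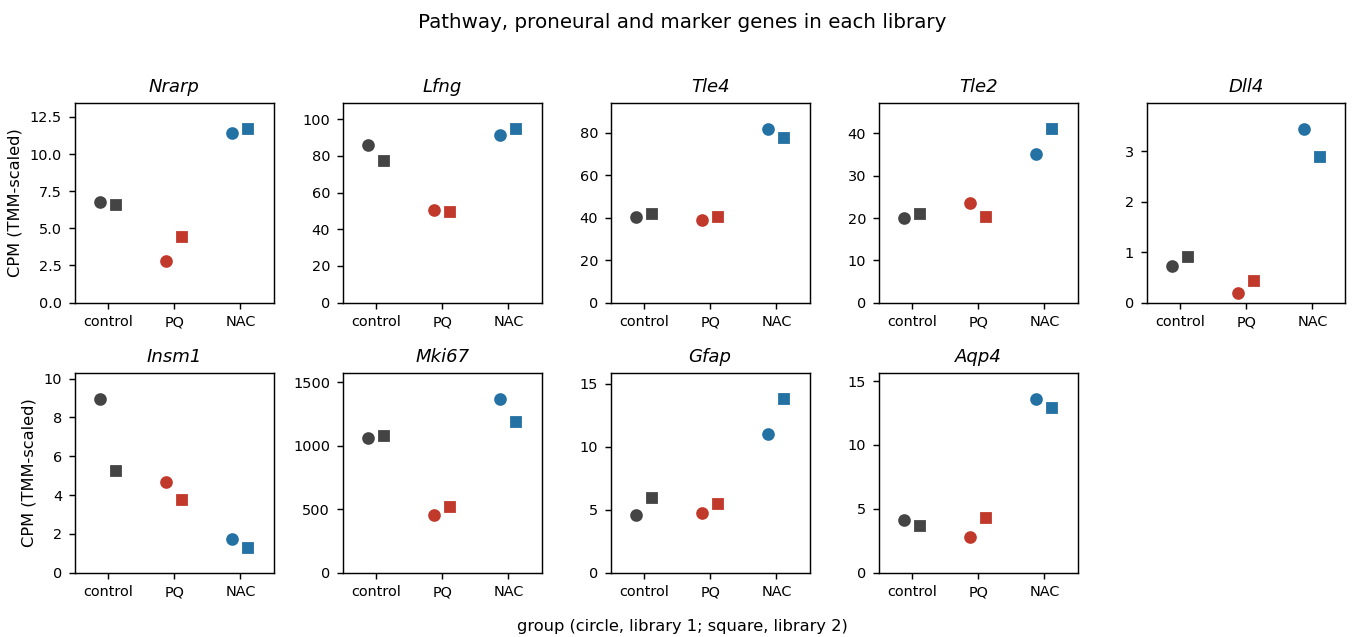
CPM in each library of pathway genes (Nrarp, Lfng, Tle4, Tle2, Dll4), Insm1 (listed beside the proneural genes), the proliferation gene Mki67 and the astrocyte genes Gfap and Aqp4. Groups are on the x axis, with circles for library 1 and squares for library 2. Nrarp, Lfng and Mki67 are lowest in PQ, and Tle4, Tle2, Dll4, Gfap and Aqp4 highest in NAC.

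Other markers moved with the same groups. All 6 proliferation genes were lower in PQ against control and against NAC, and their summed FPKM was 652.58 and 674.88 in control, 404.04 and 440.10 in PQ, and 801.70 and 745.32 in NAC, with Pcna the most abundant. Mki67, a gene of dividing cells, stood at -1.13 on the log2 scale in PQ against control (edgeR adjusted p = 5.7e-07) and at 0.26 in NAC against control (adjusted p = 0.068). The PQ libraries, low in these genes, were also the lowest for Lfng, Nrarp, Hes1, Hey1, Dll4 and Neurl1b, and the highest for Notch3. Nrarp rose in NAC against control as well, where 0 of the 6 proliferation genes passed the threshold. Of 6 astrocyte genes, 5 were tested, and Gfap (1.23, adjusted p = 3.1e-04) and Slc1a2 (0.65, adjusted p = 2.0e-04) rose in NAC against control. Aqp4 passed the filter only through NAC, with FPKM of 0.79 and 0.70 in control, 0.54 and 0.83 in PQ, and 2.66 and 2.56 in NAC, so its place among the genes tested is no support. Its log2 fold change in NAC against control was 1.76 in both fits, with an edgeR adjusted p of 1.4e-05 with the filter and 1.4e-14 without it. The summed FPKM of the astrocyte genes was 8.14 and 8.47 in control, 11.25 and 10.74 in PQ, and 15.61 and 16.06 in NAC, with Slc1a2 the most abundant and Gjb6 near 0. Aldh1l1 differed from these, with a rise in PQ (1.17, adjusted p = 0.0035) and no call in NAC against control (-0.49, adjusted p = 0.31). S100b was not called in NAC against control with the filter (1.17, adjusted p = 0.074), and its adjusted p was 0.049 without it. Map2, the only neuronal marker of 7 that was tested, rose in NAC (0.77, adjusted p = 1.1e-05), with summed FPKM of the list at 38.57 and 36.46 in control, 34.56 and 35.34 in PQ, and 65.99 and 59.38 in NAC. Without Map2 that sum was 2.94 and 2.26 in control, 1.97 and 1.29 in PQ, and 1.11 and 1.36 in NAC. Tubb3, a neuronal tubulin gene under the filter, went the other way, with 40.95 and 22.88 expected counts in control, 13 and 8 in PQ, and 6 and 7.67 in NAC, and a log2 fold change of -2.27 in NAC against control in the fit without the filter (edgeR adjusted p = 1.7e-05). In that fit Tubb3 was also lower in PQ against control (-1.65, adjusted p = 0.0016). Vim fell in NAC against control (-0.75, adjusted p = 3.8e-06), and the 8 stem cell markers summed to 3356.13 and 3419.18 FPKM in control, 3699.66 and 3754.46 in PQ, and 2632.33 and 2555.75 in NAC. The lower sum in NAC was that of Vim, since without Vim the sum was 1185.26 and 1095.92 in control, 1152.40 and 1107.28 in PQ, and 1269.91 and 1166.54 in NAC. Of the 7 stem cell markers tested, 3 were lower in NAC against control (Vim, Sox2 and Nes), and Slc1a3 was higher (0.29, adjusted p = 0.034), with a median log2 fold change of 0.07. Between PQ and control, Sox2 (-0.35, adjusted p = 0.014) and Slc1a3 (-0.48, adjusted p = 0.0016) were lower in PQ and Nes (0.34, adjusted p = 0.0086) higher. For oligodendrocyte precursors the 6 markers, led by Olig1, summed to 673.79 and 772.62 in control, 782.43 and 680.72 in PQ, and 839.58 and 945.54 in NAC. Of the 4 that were tested, Olig1 (0.41, adjusted p = 0.017) and Pdgfra (0.40, adjusted p = 0.011) were higher in NAC against control, and Nkx2-2 was lower in PQ against control (-0.51, adjusted p = 0.0071). The 6 microglial markers summed to 1.96 to 4.50 FPKM, with P2ry12 the most abundant and higher in NAC (1.18, adjusted p = 0.0033) but Tmem119, Aif1, Csf1r and C1qa at or near 0, and the 4 ependymal markers, led by Foxj1, to 7.25 to 10.26. The most abundant mural marker, Acta2, had 3.01 and 1 expected counts in control and 21.05 and 10.02 in PQ. In NAC it had 10.02 and 13.04. The fit without the filter called Acta2 higher than control in PQ (2.83, edgeR adjusted p = 0.0021) and in NAC (2.36, adjusted p = 0.022). Rgs5, Kcnj8 and Abcc9 were not called in that fit, and Pdgfrb had at most 1 count. The part of these cell states in the differences of the Notch genes was not tested.

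The genes whose pattern over the 6 libraries was closest to that of Dll1, by the root mean square difference in centred log2 CPM, were Slc15a2 (0.205), Rasl11a (0.215) and Mmd2 (0.215). Slc15a2 averaged 30.4 CPM in control, 29.8 in PQ and 90.8 in NAC, and Rasl11a 9.23, 8.35 and 37.3. Like Dll1, both were highest in NAC. For Hey1 the closest were Agap2 (0.043), Lrp3 (0.065) and Ctu1 (0.068), of which Agap2 averaged 14.5 CPM in control, 11.5 in PQ and 23.4 in NAC. These distances describe likeness in 6 libraries only.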

How the data were processed

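RNA-seq tables of 6 libraries were used, grouped by the treatment in the labels. The authors deposited for each gene an expected count, which can divide reads between genes, and an FPKM value, scaled for transcript length and library size. The study's methods name TopHat, Cufflinks and mm9. The submitters' processing notes give TopHat2 2.0.11 and Cufflinks 2.1.1 on mm9 for control library 1 and PQ library 1, and HISAT2 2.0.4, Bowtie2 2.2.5 and RSEM on mm10 for the others, although all tables have the columns that RSEM writes. Use of strand in counting is not given in the sources used here, so overlapping genes are uncertain. Genes left out of a table were taken as 0. Library numbers are names only.

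Symbols came from the RefSeq gene table (GRCm38.p6), which named 99.7% of genes. Expected counts were rounded and tested in R 4.3.3 with edgeR 4.0.16 (TMM, glmQLFit, glmQLFTest, all 6 libraries, no covariate) keeping genes whose FPKM averaged 1 or more. P-values were adjusted over all genes tested by the Benjamini-Hochberg procedure, at a threshold of 0.05. Standard errors and 95% intervals were derived from the F statistic. The scripts were tested on simulated data. Totals ranged from 9680436 to 10698241 counts per library, and genes that nowhere exceeded 3 counts were taken as not detectable. Alternatives were DESeq2 1.42.0 size factors, DESeq2's test, no filter, a platform covariate, fits on the 4 libraries compared or on BGISEQ-500 libraries alone, each library left out, and limma 3.58.1 on log2(FPKM + 1) and log2(FPKM + 0.1).

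The members and lists were chosen with earlier results of these data known. Named were all members, pathway genes past the threshold (at most the 10 with the largest absolute log2 fold change per comparison), proneural genes, Cdkn2a, and the 3 nearest patterns of the 2 members with the largest change. Marker genes given as examples were picked after their values were seen. Motifs were searched on both strands. An item of these lists is not reported here.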

Additional observations from a re-analysis of the deposited data

How the results depend on the processing

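Over 14 alternatives, the calls on Dll1 and Rbpj were kept throughout, as was that on Hey1 in PQ against NAC, and no called fold change of a member turned sign. In PQ against control, 0 members were called with DESeq2's test, with limma on log2(FPKM + 1), with limma on log2(FPKM + 0.1) and among BGISEQ-500 libraries (1, 1, 1 and 2 at an unadjusted p under 0.05). Other pathway genes called in that comparison numbered 3 with each limma fit and 2 among BGISEQ-500 libraries, against 7, and all genes called fell to 993 among BGISEQ-500 libraries, against 2250. In NAC against control 4 other pathway genes were called with DESeq2's test, against 10. With a library left out, or among BGISEQ-500 libraries, the lone one of a group is assumed to vary like the others. Leaving out each library in turn gave 0 to 1 members called in PQ against control, 2 to 3 in NAC against control and 3 to 5 in PQ against NAC. The same ranges were 2 to 5, 3 to 9 and 8 to 20 for other pathway genes, and 866 to 2206, 1286 to 2126 and 2343 to 4207 for all genes, the lowest of these all-gene counts being without PQ library 1, NAC library 1 and PQ library 1. Fewer libraries then entered each fit.

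Values that were not called changed sign when one library was left out: in PQ against control Dll1 (-0.01 to 0.48), Notch1 (-0.02 to 0.22) and Rbpj (-0.09 to 0.13), in NAC against control Notch1 (-0.19 to 0.05) and Notch3 (-0.44 to 0.05), and in PQ against NAC Notch2 (-0.20 to 0.05). Among BGISEQ-500 libraries Dll1 stood at -0.14 and Notch1 at -0.13 in PQ against control. The cause was not tested. No paired analysis by replicate number was possible because the labels carry no replicate numbers shared between groups. The platform covariate, which sets control library 1 with PQ library 1 apart from the other libraries, gave 1, 3 and 4 members called in the 3 comparisons. Depth limits Dll3, Hes5 and Dll4, with counts of at most 37 in any library.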
